A study of Homo sapiens with 40 samples.

Results

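Single T47D cells, from a luminal breast cancer line at passage 10, were sorted as EpCAM+/CD49f+. Whether they came from 1 culture is not given. Some were amplified by G&T, a non-commercial protocol that first separates polyadenylated RNA from DNA. Others were amplified with the commercial NEBNext Single Cell/Low Input kit, called NEB here. The G&T cells were lysed in RLT Plus buffer and their mRNA was captured on oligo-dT beads, and the DNA was not sequenced. The NEB cells were lysed in the kit's own buffer and carried through the kit's own library preparation. The comparison below was made gene by gene between the G&T and NEB cells that passed the thresholds of the study, namely at least 1000 genes, a library of at least 600000 reads, at most 30% mitochondrial reads and at most 25% reads on ERCC spike-ins. These were 22 of the 40 cells of the series, 11 for each protocol. The remaining wells were 2 of G&T, 3 of NEB and all of Takara, the third protocol, whose 11 passing cells are given below only as values side by side.

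The kept G&T cells held 658154 to 1166633 reads on genes with a median of 807065, and the kept NEB cells 624772 to 963816 with a median of 704475. Levels are CPM, the reads of a gene scaled to 1000000 reads on genes, and the pooled level of a gene in a protocol is the sum over its 11 cells, that is over 9500268 reads for G&T and 7973692 for NEB. A pooled count of 0 allows a level of up to 0.316 CPM in G&T and 0.376 CPM in NEB, taking 3 reads as its limit. Each protocol was run on 1 plate and sequenced in 1 run, so a protocol is 1 sample and its cells are not replicates of it. No test between the protocols was therefore made, and the differences carry no p-value. Intervals of levels are exact 95% Poisson intervals, and those of ratios are exact 95% binomial intervals given the summed reads of both protocols. Both cover counting error only, as reads from PCR products without molecular identifiers are not independent molecules. ERCC spike-ins, which are outside these totals, took 1.86 ± 0.474% of the library in G&T and 11.7 ± 4.10% in NEB (SD, 11 cells), and their part in the results was not tested. Lysis, chemistry, amplification, library preparation, plate and run differed together and cannot be told apart.

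Both protocols prime the poly(A) tail of an mRNA with oligo-dT, copy it by reverse transcription, add a handle at the end of the copy by template switching and amplify the cDNA by PCR before it is fragmented into a sequencing library. A gene is read only if its transcript survives each of these steps. Transcripts differ in their base composition, and the share of G and C bases (GC content) sets how stably strands pair with each other. It varies widely between human genes: GC-rich genes gather on a few gene-dense chromosomes such as 19 and 22.

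The transcripts at the extremes of the comparison differed in this composition, which is shown by a short stretch of each. The stretches below are the first 60 bases within a coding exon of the canonical transcript (GENCODE 44, GRCh38) whose GC content was nearest to that of the whole longest transcript, written 5′ to 3′ in the sense of the mRNA with G and C in capitals. The first 4 genes, SLC39A7 (chr6:33201345-33201404, plus strand), DDX6 (chr11:118779677-118779736, minus strand), SLC25A1 (chr22:19178181-19178240, minus strand) and PFKL (chr21:44312173-44312232, plus strand), were higher in G&T. The last 4, PAN3 (chr13:28174273-28174332, plus strand), AEBP2 (chr12:19462556-19462615, plus strand), SERINC5 (chr5:80177991-80178050, minus strand) and SKIL (chr3:170360418-170360477, plus strand), were higher in NEB.
SLC39A7: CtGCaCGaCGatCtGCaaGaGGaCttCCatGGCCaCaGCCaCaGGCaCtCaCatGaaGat
DDX6: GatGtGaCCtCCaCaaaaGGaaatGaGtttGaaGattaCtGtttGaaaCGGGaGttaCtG
SLC25A1: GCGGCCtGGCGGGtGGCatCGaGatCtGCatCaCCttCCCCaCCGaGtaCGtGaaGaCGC
PFKL: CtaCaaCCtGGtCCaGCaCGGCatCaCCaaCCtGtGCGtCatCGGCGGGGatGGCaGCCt
PAN3: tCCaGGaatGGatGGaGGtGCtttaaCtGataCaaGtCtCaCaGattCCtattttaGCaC
AEBP2: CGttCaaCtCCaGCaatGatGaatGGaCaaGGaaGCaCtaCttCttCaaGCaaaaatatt
SERINC5: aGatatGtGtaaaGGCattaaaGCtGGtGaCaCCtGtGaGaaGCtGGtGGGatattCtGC
SKIL: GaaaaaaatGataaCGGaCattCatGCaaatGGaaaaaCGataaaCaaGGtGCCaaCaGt

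In these stretches G and C took 33 of 60 bases in SLC39A7, 39 in SLC25A1 and 38 in PFKL, against 25 in PAN3, 23 in AEBP2, 27 in SERINC5 and 21 in SKIL. DDX6, with 24, went against this order. The stretches were picked to match the whole transcript, so they illustrate its GC content and do not stand for the coding part. In AEBP2 the stretch had 38.3% GC and the coding part 56.8%, and in PAN3 41.7 and 48.4%.

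A total of 9603 genes reached a mean of at least 5 CPM over the pooled levels of both protocols and were counted. Ratios are log2 of (G&T CPM + 1) over (NEB CPM + 1), a scale that understates the differences of genes with low levels, and a gene was called where they differed at least 4-fold. By this rule 2380 genes (24.8%) were called higher in G&T and 804 (8.37%) higher in NEB, while 3749 (39.0%) lay within 2-fold. The median log2 ratio was 0.35, with quartiles of -0.87 and 1.98. A positive ratio was found for 5478 genes and a negative one for 4125. Among the 9039 protein-coding genes counted, 2284 (25.3%) were called higher in G&T and 699 (7.73%) in NEB. Other scalings moved the median over all genes by -0.13 (TMM), -0.18 (median of ratios) and 0.11 (nuclear reads as the total), and smaller list medians are to be read against these shifts.

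The protein-coding genes with the largest ratios in favour of G&T, among those read in every G&T cell, were SLC39A7, DDX6, SLC25A1, PFKL, ASS1 and CD82. SLC39A7 (ENSG00000112473, chr6:33200305-33204439), which encodes a zinc transporter of the endoplasmic reticulum, was read at 185 CPM (95% interval 176 to 194) in G&T and had no read in any NEB cell. Its G&T cells spanned 46.0 to 327 CPM with a median of 199 CPM, and the pooled level was at least 492-fold higher in G&T. DDX6 (ENSG00000110367, chr11:118747763-118791164), a DEAD-box helicase of mRNA storage and decay, stood at 109 to 285 CPM with a median of 185 CPM in the G&T cells and had 2 reads over all NEB cells. The ratio of its pooled levels was 703-fold (95% counting interval 194 to 5806). In no NEB cell did DDX6 exceed 1.32 CPM, so the cells of the protocols did not overlap.

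SLC25A1 (chr22:19175581-19178739), the citrate carrier of the mitochondrial inner membrane, was pooled at 280.1 CPM (95% interval 269.6 to 291) in G&T and 1.00 CPM (95% interval 0.433 to 1.98) in NEB. All 8 NEB reads of SLC25A1 came from cell H2, and its log2 ratio was 7.13 with this cell and 8.13 without it. PFKL (chr21:44300051-44327376), the liver-type phosphofructokinase of glycolysis, ranged over 29.0 to 327 CPM with a median of 202 CPM in G&T cells and had 1 NEB read, a ratio of 1244-fold (95% counting interval 223 to 49163). These genes were chosen for reads in every G&T cell and for large ratios, and in NEB they were at or near the limit of detection. ASS1, which encodes argininosuccinate synthase, was read at 172 CPM in G&T with 2 NEB reads, a ratio of 686-fold (95% counting interval 189.6 to 5670.4). CD82, a tetraspanin of the plasma membrane, was read at 206 CPM in G&T and 0.502 CPM in NEB.

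In the other direction PAN3, AEBP2, SERINC5, SKIL, NUDT19 and C6orf62 had the largest ratios among genes read in every NEB cell. PAN3 (ENSG00000152520, chr13:28138506-28295335), a subunit of a deadenylase that shortens poly(A) tails, was pooled at 476 CPM (95% interval 461 to 491) in NEB and 5.37 CPM (95% interval 4.00 to 7.06) in G&T. Its NEB cells spanned 144 to 706 CPM with a median of 458 CPM, and its G&T cells 0 to 38.0 CPM with a median of 2.07 CPM. The log2 ratio of PAN3 was -6.23, or -6.92 without G&T cell B2. All NEB cells lay above all G&T cells.

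AEBP2, a cofactor of the Polycomb complex that methylates histone H3, was read at 769 CPM in NEB and 11.2 CPM in G&T (log2 ratio -5.98). SERINC5, a membrane protein that lowers the infectivity of retroviruses, was read at 492 and 8.63 CPM. SKIL, a corepressor of SMAD signalling, was read at 1734 and 52.3 CPM (log2 ratio -5.02). NUDT19, a hydrolase, was read at 610.0 CPM in NEB and 18.6 CPM in G&T. C6orf62 was also among the 6 highest genes of NEB, at 9639 CPM, and was read at 315 CPM in G&T. The cells of the protocols did not overlap for any of these 12 genes, which were picked for their ratios. Over all 9603 counted genes every G&T cell lay above every NEB cell for 472 (4.92%), and the reverse held for 152 (1.58%).

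**Figure D1:**
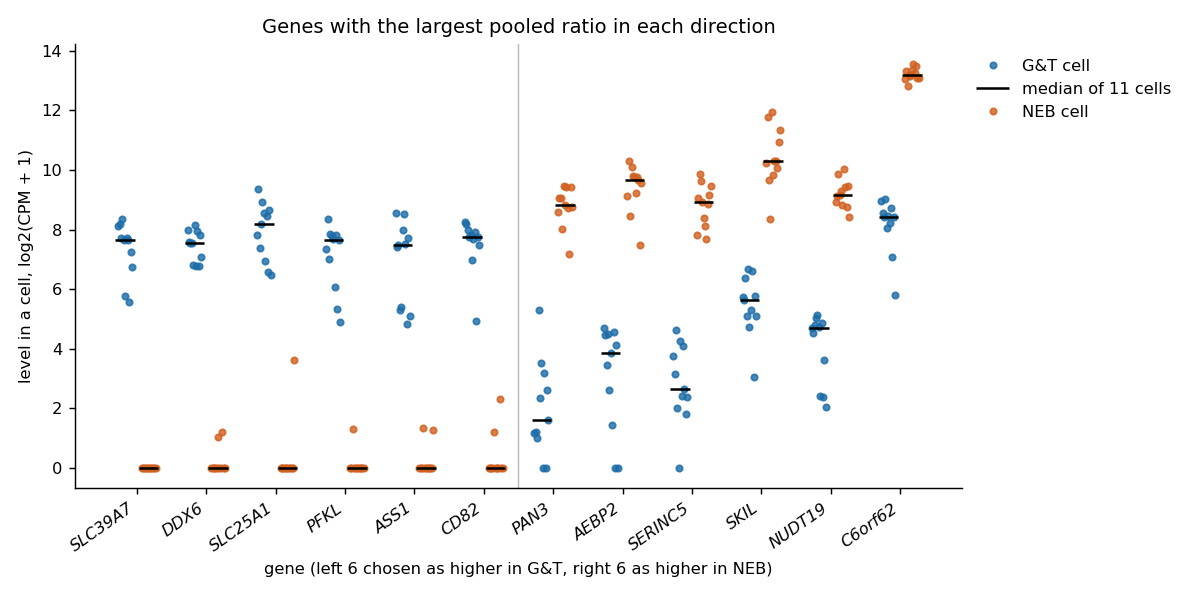
CPM per cell of the 12 protein-coding genes with the largest ratios, 6 in each direction, as log2(CPM + 1). Each point is 1 of the 11 cells of G&T or NEB and bars give medians. The cells of the protocols did not overlap for any of the 12 genes.

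The GC content of a transcript went with its ratio across the genes counted. Over the 9556 counted genes with annotation the Spearman correlation between the GC content of the longest transcript and the log2 ratio was 0.60, given as a description, since genes of the same cells and libraries are not independent replicates. When these genes were divided into 10 bins of equal gene number by GC content, the median log2 ratio was -1.07 in the lowest bin (27.4 to 37.7% GC) and 3.29 in the highest (59.9 to 73.9% GC), and it was higher in each bin than in the bin before. In the lowest bin 3.14% of the genes were called higher in G&T and 22.7% in NEB. In the highest bin these shares were 74.0% and 0.418%. The typical G&T level was a median of 30.4 CPM in the lowest bin and 25.9 CPM in the highest. The typical NEB level was 65.1 CPM in the lowest and 2.13 CPM in the highest. The median gene of every bin was read in 11 G&T cells, whereas in NEB it was read in 7 cells in the lowest bin and 2 in the highest. These levels and cell numbers were in part set by the level filter, as a gene low in NEB was counted only where G&T was high. Bins of genes of at least 10 CPM in the Takara cells had G&T medians of 42.6 CPM in the lowest and 27.9 CPM in the highest. Their NEB medians were 86.4 and 1.63 CPM, with reads in 8 and 1 cells for the median gene.

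**Figure D2:**
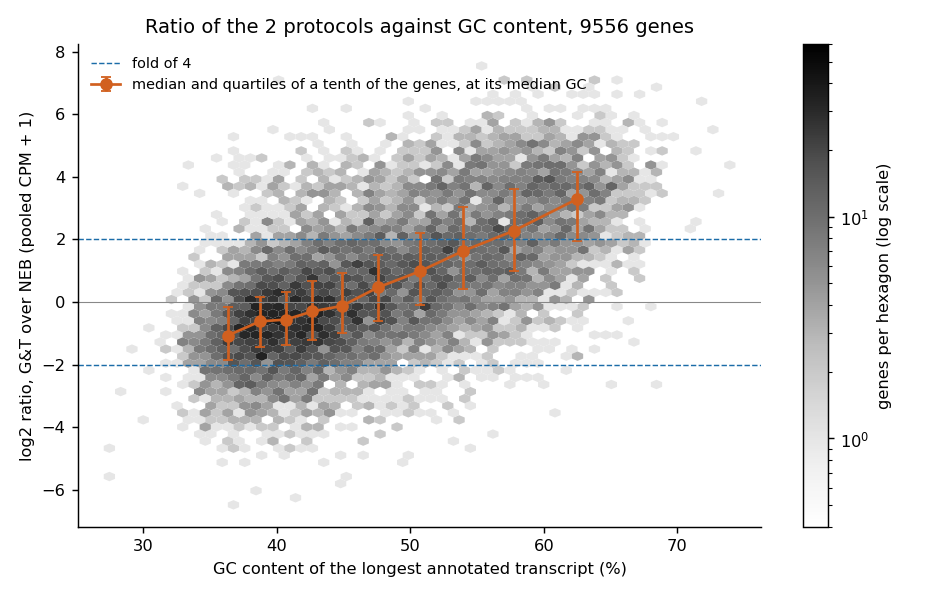
Log2 ratio of G&T over NEB against the GC content of the longest transcript for the 9556 counted genes with annotation. Shading gives the number of genes on a logarithmic scale and the points with bars give the median and quartiles of the 10 GC bins, with medians from -1.07 in the lowest to 3.29 in the highest.

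Split at 42 and 55% GC, limits that were chosen after the values were seen, 496 of 3018 genes below 42% were called higher in NEB and 135 in G&T, with a median log2 ratio of -0.74. Above 55%, 1343 of 2125 genes (63.2%) were called higher in G&T and 18 (0.847%) in NEB, with a median of 2.66. Between these limits 897 of 4413 were called higher in G&T and 276 in NEB.

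The order by GC content was also present when the genes were chosen without either protocol. Among 7929 genes of at least 10 CPM in the Takara cells the correlation was 0.65. It was 0.61 over protein-coding genes, 0.39 over 306 long noncoding RNA genes and 0.62 with the canonical in place of the longest transcript. Within 5 bins of transcript length it lay between 0.51 and 0.68. The correlation of the ratio with transcript length itself was -0.08, and that with the longest run of A was -0.25. Within the 10 GC bins the correlation with length lay between 0.07 and 0.20, and that with the run of A between -0.05 and 0.08. The Takara cells enter all of the following ratios, which are given side by side. In the GC bins of the genes counted by their G&T and NEB levels, the Takara over NEB median log2 ratio was -1.14 in the lowest and 3.25 in the highest. For G&T over Takara the medians there were 0.19 and -0.24. In GC bins of the 7929 genes chosen by their Takara level, the medians were -0.97 and 3.81 for Takara over NEB. For G&T over Takara they were 0.04 and -0.76, and this choice of genes itself used the Takara level.

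By part of the transcript, the correlation with the ratio was 0.24 for the 5′ untranslated part, 0.54 for the coding part and 0.59 for the 3′ untranslated part, against 0.62 for the whole canonical transcript of the same 7276 genes. These divisions were also made after values were seen. Where both the 3′ untranslated part lay below 42% and the coding part below 45% GC, the median log2 ratio of 2133 genes was -0.64. With a GC-poor 3′ part but a coding part above 55%, the median of 328 genes was 0.21, and 65 were called higher in G&T and 44 in NEB. With both parts above 55% the median of 864 genes was 3.32, and 649 were called higher in G&T and 1 in NEB. Between these last 2 sets, both with a GC-rich coding part, the medians lay more than 3 log2 units apart. SLC25A1 and PFKL were GC-rich in every part. AEBP2 combined a coding part of 56.8% GC with a 3′ untranslated part of 30.2%, and PAN3 combined 48.4% with 34.3%. For SKIL and SERINC5, also higher in NEB, these parts had 40.6 and 29.7% and 50.3 and 42.6%. SLC39A7, higher in G&T, had 56.0 and 53.6%. DDX6, also higher in G&T, went against this with 43.6 and 38.6%.

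The medians of the nuclear chromosomes broadly went with their GC content. The mitochondrial genome lay off this order, with a median of 1.33 over 18 genes at a median GC content of 43.6%. The highest medians were those of chromosome 19, at 1.68 with a median GC content of 56.6%, and chromosome 22, at 1.59 with 54.6%. On chromosome 19, 269 of 596 genes (45.1%) were called higher in G&T. The lowest medians were -0.36 for chromosome 13 and -0.25 for chromosome 4, both with a median GC content of 41.1%.

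The same order was present in each single cell. The share of nuclear protein-coding reads on transcripts above 55% GC was 19.7 ± 1.57% (SD over 11 cells) in G&T, with a range of 16.4 to 21.9%, and 5.29 ± 1.20% in NEB, with a range of 4.12 to 8.34%. On transcripts below 42% GC the G&T cells held 27.0 to 32.1% of these reads and the NEB cells 43.5 to 53.6%. Neither share overlapped between the protocols. The Takara cells held 23.4 to 28.4% on the GC-rich and 22.8 to 25.8% on the GC-poor transcripts. In numbers of genes, a G&T cell had reads for 2514 ± 238 GC-rich genes and an NEB cell for 676 ± 133. Of the GC-poor genes, a G&T cell had reads for 2804 ± 174 and an NEB cell for 1800 ± 179.

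**Figure D3:**
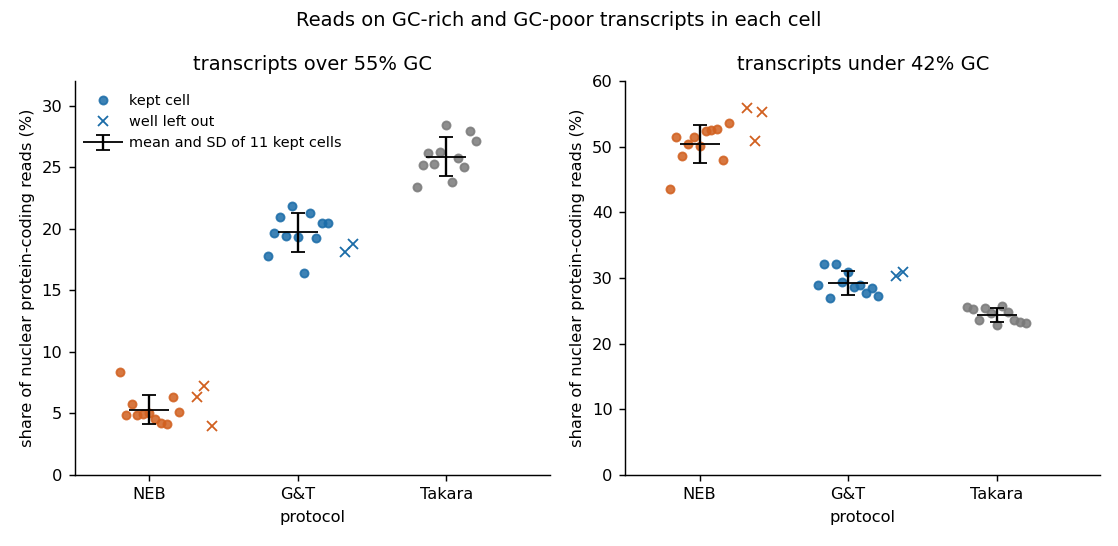
Percent of nuclear protein-coding reads on transcripts above 55% GC and below 42% GC in each of the 11 kept cells of G&T, NEB and Takara, with the mean and SD. Crosses are the wells left out. G&T cells lie at 16.4 to 21.9% and NEB cells at 4.12 to 8.34% for the GC-rich transcripts, and at 27.0 to 32.1% and 43.5 to 53.6% for the GC-poor ones.

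Single genes went against the order, and those with the largest ratios were picked after their values were seen. DDX6 has a GC content of 40.0% and had 2 reads in NEB. UXS1, the enzyme that makes UDP-xylose, has 40.1% GC and was read at 43.6 CPM in G&T and in no NEB cell, at least 116-fold higher. NHLRC2 (36.7% GC) and GPAM (41.1% GC), an acyltransferase of triglyceride synthesis, had 1 NEB read each, at 39.2 and 23.4 CPM in G&T. The ratio was 312-fold (95% counting interval 55.7 to 12365) for NHLRC2 and 186-fold (95% counting interval 33.1 to 7392) for GPAM. On the other side MIDEAS, a scaffold protein of a histone deacetylase complex with 56.5% GC, was read at 508 to 1948 CPM with a median of 659.7 CPM in NEB cells and at 2.07 to 116 CPM with a median of 37.5 CPM in G&T cells, with no overlap. ZFP36L1, which encodes a protein that binds AU-rich elements, was pooled at 956 CPM in NEB and 165 CPM in G&T. EPPK1, an epiplakin of the cytoskeleton with 68.1% GC, was at 144 and 23.9 CPM, and TMA7 at 74.4 and 16.4 CPM. The cells of the protocols overlapped for these last 3.

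Paralogs encode related, in some families near-identical, proteins from transcripts that can differ in composition. Of these, 28 families were looked at, also chosen after values were seen. The small GTPase RAB1, which acts in transport from the endoplasmic reticulum to the Golgi, has the GC-poor copy RAB1A (38.2%) and the GC-rich copy RAB1B (60.4%). RAB1A was read at 147 CPM in G&T and 323 CPM in NEB (log2 ratio -1.13). RAB1B was read at 70.3 CPM in G&T with 2 NEB reads, a ratio of 280.3-fold (95% counting interval 77.3 to 2319.6). RAB1B was read in 11 G&T cells and 2 NEB cells, RAB1A in 11 and 10. Of the calmodulin genes, which encode a calcium-binding protein, CALM2 (36.2% GC) had a log2 ratio of -2.02, from 739 and 3004 CPM in G&T and NEB. CALM3 (55.8% GC) had one of 1.47, from 101 and 35.7 CPM.

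The catalytic subunits of protein phosphatase 1 divided likewise, with 145 and 2081 CPM for PPP1CB (35.7% GC) and 274 and 86.4 CPM for PPP1CA (58.5% GC) in G&T and NEB. For the ARF GTPases of vesicle budding, ARF6 (43.3% GC) was read at 162 and 1382 CPM and ARF1 (54.0% GC) at 532 and 73.2 CPM. Over all 5 ARF genes the order did not hold throughout. ARF5, the richest in GC (56.6%), had a log2 ratio of 2.30, below the 2.84 of ARF1. ARF4, the poorest (40.3%), had one of -1.57, above the -3.08 of ARF6. ARF6 spanned 548 to 2798 CPM with a median of 1318 CPM in NEB cells, all above the 38.6 to 459 CPM with a median of 158 CPM of G&T cells. The histone H3.3 genes went against the order. H3-3A (40.5% GC) was read at 699 to 2505 CPM with a median of 974 CPM in G&T cells and at 59.0 to 200.2 CPM with a median of 106 CPM in NEB cells. H3-3B (50.4% GC) was read at 299 to 1506 CPM with a median of 729 CPM in G&T cells and at 3176 to 10981 CPM with a median of 5539 CPM in NEB cells. The 2 genes that encode the same histone therefore had ratios of opposite sign (3.49 and -3.27), without overlap of the cells in either.

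Of the 28 families 26 had at least 2 members counted, and in 15 of them the member richest in GC had the highest ratio. In 50 of 74 pairs within a family (67.6%) the GC-richer member had the higher ratio, against 71.2% of all pairs of counted genes. Among pairs at least 5 percentage points of GC apart it was 35 of 42 (83.3%), against 78.7% of all such gene pairs. The pairs share members. The values of paralogs are uncertain, since reads that map to more than 1 place were set apart from the gene counts.

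Detection per gene differed as well. A read in at least 1 cell was found for 22428 genes in G&T and 12479 in NEB, of which 11612 were shared, 93.1% of the genes of NEB and 51.8% of those of G&T. Per cell 11348 ± 991 genes were read in G&T and 5277 ± 661 in NEB (SD, 11 cells), and 11022 and 5214 at an equal depth of 624772 reads. Every G&T cell had a read for 5574 genes and every NEB cell for 1388. These had 1314 genes in common, 94.7% of those of NEB and 23.6% of those of G&T. In contrast, 6822 genes of G&T and 3408 of NEB were read in exactly 1 cell.

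A read in every G&T cell and in no NEB cell was found for 188 genes. The opposite pattern was found for 0 genes, with at least 1 read, with at least 5 reads, after thinning the cells to equal depth and among protein-coding genes. Taken anew in each setting, the count was 164 after thinning and 128 at a minimum of 5 reads. The 4 with the highest G&T level were SLC39A7, GPS1, C19orf48P and ISOC2. GPS1, a subunit of the COP9 signalosome that removes NEDD8 from ubiquitin ligases, was read at 128 CPM (95% interval 120.5 to 135) in G&T and was at least 339-fold higher there. C19orf48P, listed as a unitary or unprocessed pseudogene, was read at 127 CPM and ISOC2 at 126 CPM, at least 337-fold and 335-fold higher. All 4 have transcripts of 55% GC or more.

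A gene of a given level was spread over fewer cells in NEB. Among genes with a pooled level of 20 to 50 CPM, the median gene was read in 11 G&T cells and in 6 NEB cells. All 11 cells had a read for 64.0% of such genes in G&T and for 3.04% in NEB. The cell with the most reads held 22.9% of the reads of the median gene in G&T and 39.5% in NEB. The median level within the cells that had a read was 28.5 CPM in G&T and 54.3 CPM in NEB. At 50 to 100 CPM the genes read in all cells were 92.8% in G&T and 9.90% in NEB. The protocols came together at 500 CPM and above, where 100% and 97.2% of the genes were read in every cell.

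**Figure D4:**
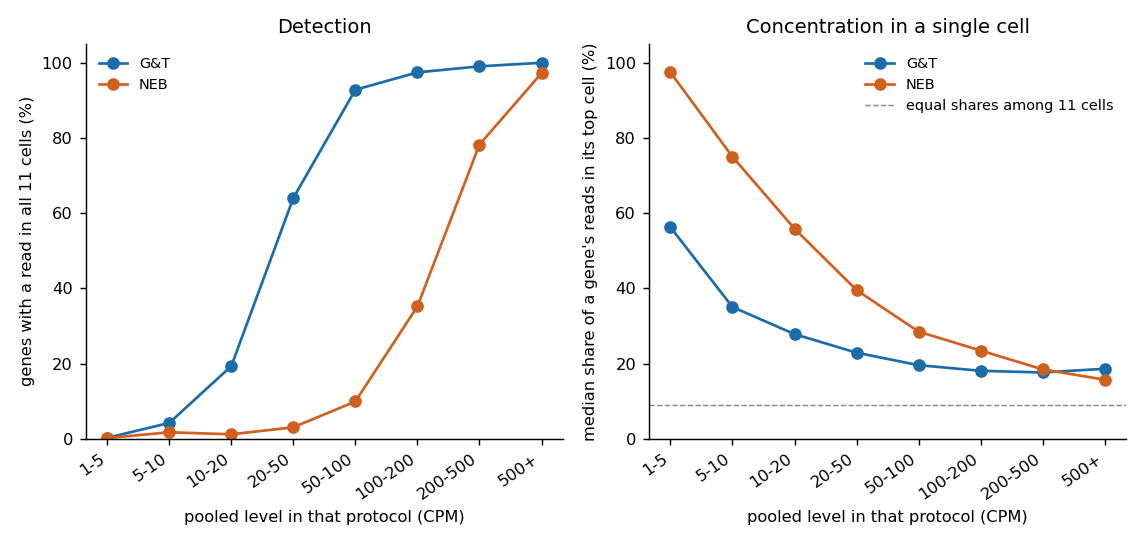
Percent of genes read in all 11 cells of a protocol (left) and median percent of a gene's reads held by its top cell (right), by bins of the pooled CPM in that protocol. At 20 to 50 CPM all 11 cells had a read for 64.0% of the genes in G&T and 3.04% in NEB, and at 500 CPM and above for 100% and 97.2%.

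By transcript class, protein-coding genes took 88.5% of the reads on genes in G&T and 95.3% in NEB. The ribosomal RNAs of the mitochondrion are transcribed from the mitochondrial genome and end in short A tails. They took 9.26% in G&T (4.57 to 15.2% over cells) and 0.406% in NEB (0.204 to 0.585%). MT-RNR2, the large ribosomal RNA and the gene with most reads in G&T, was pooled at 76614 CPM in G&T and 3829 CPM in NEB. Its cells spanned 39312 to 121766 CPM with a median of 89050.4 CPM in G&T and 1722 to 5479 CPM with a median of 3471 CPM in NEB, without overlap. MT-RNR1, the small one, was at 16001 and 228 CPM (log2 ratio 6.13).

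The 13 mRNAs of the mitochondrial genome differed in ratio among themselves. Their sum was 66915 CPM in G&T and 89468 CPM in NEB, and 2 were called higher in G&T and 0 in NEB. MT-CO2, a subunit of cytochrome oxidase and the highest protein-coding gene of both protocols, had a log2 ratio of -1.48, from 13418 CPM in G&T and 37320.4 CPM in NEB. MT-ND4, a subunit of complex I, was at 12522 and 26184 CPM. By contrast MT-ND3, another subunit of complex I, was at 1845 and 110.2 CPM (log2 ratio 4.05), and MT-CO1 at 11285 and 5032 CPM. Genes of the same polycistronic transcript thus differed in ratio by more than 5 log2 units. Of the mitochondrial transfer RNAs 3 were counted, of which MT-TL1 was read at 14.1 and 0.502 CPM in G&T and NEB and MT-TP at 37.5 and 59.6 CPM. Copies of mitochondrial sequence in the nuclear genome can share reads with these genes: the pseudogene MTATP6P1 was listed at 840.2 and 1148 CPM.

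Long noncoding RNA genes took 1.29% of the reads in G&T and 3.58% in NEB, and this difference lay in 1 gene. MALAT1, an abundant nuclear transcript of splicing speckles whose mature end is not a regular poly(A) tail, spanned 1326 to 3514 CPM with a median of 2808 CPM in G&T cells and 7265 to 44265 CPM with a median of 21342 CPM in NEB cells. It made up 20% of the long noncoding reads in G&T and 71.7% in NEB. Without it, a sum chosen after the values were seen, the class held 10350.0 CPM in G&T and 10153 CPM in NEB. Of 306 such genes counted, 39 were called higher in G&T and 66 in NEB, with a median log2 ratio of -0.29 that became 0.07 at a minimum of 1 CPM. Of 13 known by name, 2 were called higher in G&T and 1, MALAT1, in NEB (median 0.51). EPB41L4A-AS1 was read at 26.3 CPM in G&T and in no NEB cell, at least 69.9-fold higher. GATA3-AS1, divergent to the luminal factor GATA3, was read at 59.5 CPM in G&T with 3 NEB reads, and its log2 ratio of 5.46 became 4.56 without G&T cell H1. Reads of antisense genes cannot be told apart from those of their partners where counting ignores the strand.

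Of the 20 small nucleolar RNA host genes counted, 7 were called higher in G&T and 1 in NEB, with a median log2 ratio of 1.53. SNHG25 was read at 58.8 and 0.627 CPM in G&T and NEB, and GAS5, the highest of the list, at 335 and 226 CPM. In G&T cells E2 and H1 SNHG25 was at 233 and 177 CPM, and in the others at most at 55.7 CPM. These cells had the fewest genes read of the kept G&T cells (10074 and 9541). SNHG14 was called higher in NEB at 24.0 and 104 CPM, a call that ended when any of 10 single cells was left out (log2 ratios of -1.81 to -1.99). Processed pseudogenes, intronless copies of mRNAs whose reads can come from their parent genes, took 0.388% of the reads in G&T and 0.168% in NEB, and 25 of 90 were called higher in G&T and 10 in NEB. Of the 95 unprocessed and unitary pseudogenes 21 and 5 were called, with a median of 0.10 that became negative under TMM and median of ratios. RPL41P5 and PPIAP22 were read at 166 and 401 CPM in G&T against 1.13 and 29.2 CPM in NEB. Of the structural noncoding RNA list 0 genes passed the level filter. 7SK, which restrains transcription elongation, was counted outside this list, in the class of miscellaneous RNA genes. It was called higher in G&T, at 29.4 CPM and without a read in NEB. G&T cell E2 held 43.0% of its reads (log2 ratio 4.92, 4.29 without this cell).

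The 39 gene lists, of which those of noncoding and mitochondrial genes are given above, were written with earlier results of these data known. Their counts stand against a background of 24.8% called higher in G&T and 8.37% in NEB over all counted genes. This background changed with GC content. Over all genes of the GC bin from 52.3 to 55.8%, 40.9% were called higher in G&T and 2.51% in NEB, with a median log2 ratio of 1.63.

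The cytosolic ribosomal proteins, which form the translating ribosome with its RNAs, had a median of 1.99, the highest of the lists with at least 5 members counted except the tubulins. Of 84 counted, 42 were called higher in G&T and 0 in NEB, and 78 had a ratio above 0. Together they held 108949.8 CPM in G&T (70962 to 165951 CPM over cells) and 36358 CPM in NEB (28711 to 50233 CPM). Their median GC content was 47.9%, and the median ratio of all genes in the GC bin from 46.2 to 49.0% was 0.47. RPS28, of the small subunit, was read at 772 and 12.9 CPM in G&T and NEB (log2 ratio 5.80). It was at 1657 and 1592 CPM in G&T cells E2 and H1 and at most at 779 CPM in the other G&T cells. RPS12 spanned 866 to 3107 CPM with a median of 1633 CPM in G&T cells and 0 to 154 CPM with a median of 27.7 CPM in NEB cells, and RPLP2, of the stalk that binds elongation factors, 501 to 2463 CPM with a median of 731 CPM and 7.60 to 89.9 CPM with a median of 44.4 CPM. No cell of one protocol reached the range of the other for these 2 genes. RPL7, the highest member over both protocols, was instead at 2061 and 5751 CPM in G&T and NEB (log2 ratio -1.48).

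Other parts of the translation machinery stood apart from this. Of the 74 mitochondrial ribosomal proteins counted, 9 were called higher in G&T and 6 in NEB, with a median log2 ratio of 0.26. MRPS34 was read at 288 and 27.2 CPM in G&T and NEB, and MRPS17 at 7.68 and 249.9 CPM. Of the 61 translation factor genes counted, 10 were called higher in G&T and 4 in NEB, with a median log2 ratio of -0.04 that became 0.08 with nuclear reads as the total and 0.10 at a minimum of 1 CPM. EIF2S3, of the factor that brings the initiator tRNA, was at 563 and 3347 CPM, and EEF1A2, an elongation factor, at 30.6 CPM in G&T with no NEB read. For the 20 aminoacyl-tRNA synthetases counted, 5 and 0 were called, with a median of 0.34. VARS1, for valine, had a log2 ratio of 2.98 that became 3.69 without NEB cell H2, while EPRS1, for glutamate and proline, was at 548 and 1240.1 CPM.

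The proteasome, which degrades ubiquitinated proteins, had the lowest median of the lists with at least 5 members. Of the 45 subunit genes counted, 1 was called higher in G&T and 5 in NEB, with a median log2 ratio of -0.48, and 31 had a ratio below 0. PSMD4, a ubiquitin receptor of the regulatory particle, spanned 363 to 2402 CPM with a median of 1397 CPM in NEB cells and 123 to 400.2 CPM with a median of 283 CPM in G&T cells. PSMC2, of the ATPase ring, spanned 154 to 1372 CPM with a median of 741 CPM and 55.5 to 236 CPM with a median of 100.3 CPM. Cells overlapped for both, in the lowest NEB cells. PSMD3 was called in the other direction at 114 and 4.51 CPM in G&T and NEB, and its log2 ratio of 4.38 became 5.26 without NEB cell D1. PSMA7, the highest member, was at 1357 and 465 CPM. It was at 2622 and 2830 CPM in G&T cells E2 and H1 and at most at 1657 CPM in the other G&T cells. The median GC content of the list was 47.5%, and its median ratio lay below 0 under each scaling. Subunits of 1 complex thus differed in ratio over 4.38 to -2.92 on the log2 scale.

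In protein folding and ubiquitin conjugation the list medians lay near 0, with a few members far from it. Of the 30 cytosolic chaperones counted, 2 were called higher in G&T and 0 in NEB, with a median log2 ratio of 0.10 that became negative under TMM and median of ratios. CDC37, a cochaperone of kinases, was read at 98.9 and 3.01 CPM in G&T and NEB, and its log2 ratio of 4.64 became 6.64 without NEB cell D1. HSP90AA1, the highest of them, was at 4346 and 5436 CPM. Of the 22 genes of folding in the endoplasmic reticulum counted, 7 were called higher in G&T and 2 in NEB, with a median log2 ratio of 0.07, again negative under both of those scalings. CRELD2 was at 56.6 and 0.627 CPM and DNAJC3, a cochaperone of BiP, at 94 and 755 CPM. Of the 32 ubiquitin-conjugating enzymes counted, 5 were called higher in G&T and 2 in NEB, with a median log2 ratio of -0.03 that became 0.08 with nuclear reads as the total. UBE2S, which extends chains for the anaphase-promoting complex, was read at 77.9 CPM in G&T with 2 NEB reads, and UBE2W at 24.6 and 235 CPM.

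Of the 39 coat and cargo receptor genes counted, 10 were called higher in G&T and 6 in NEB, with a median log2 ratio of 0.17 that became -0.02 under median of ratios. The cargo receptors TMED2 and TMED7 were at 321 and 1406 CPM and at 20.8 and 448 CPM in G&T and NEB, whereas ERGIC1 was at 96.1 CPM in G&T with 2 NEB reads. Of the 40 RAB GTPases counted, 9 were called higher in G&T and 5 in NEB, with a median log2 ratio of 0.20, or -0.05 under median of ratios. RAB18 was called higher in NEB at 413 and 1724 CPM, but not without NEB cell B1 or C2 or G&T cell B1 or E2 (-1.94, -1.96, -1.98 and -1.996). RAB33B, of the Golgi, was at 4.53 and 91.0 CPM. Of the 15 subunits of the V-ATPase proton pump counted, 4 were called higher in G&T and 2 in NEB, with a median log2 ratio of -0.47. ATP6V1A, its catalytic subunit, was at 52.7 and 440.2 CPM, and ATP6V0E2 at 33.4 CPM in G&T with no NEB read.

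Of the 20 genes of glycolysis and the pentose phosphate pathway counted, 7 were called higher in G&T and 0 in NEB, with a median log2 ratio of 1.79. Their median GC content was 53.3%, and the median ratio of all genes in the GC bin from 52.3 to 55.8% was 1.63. GAPDH spanned 175 to 1064 CPM with a median of 419.8 CPM in G&T cells and 0 to 161 CPM with a median of 35.7 CPM in NEB cells, with no overlap, and ENO1 was pooled at 1147 and 366 CPM in G&T and NEB. PFKL, described above, had the largest ratio of this list. Of the 75 nuclear genes of oxidative phosphorylation counted, 12 were called higher in G&T and 3 in NEB, with a median log2 ratio of 0.69. ATP5F1D, of the ATP synthase, was at 177 and 5.02 CPM, with a log2 ratio of 4.89 that became 6.15 without NEB cell A1. SDHD, of succinate dehydrogenase, was called higher in NEB at 55.2 and 551 CPM. Of the 23 tricarboxylic acid cycle genes counted, 5 were called higher in G&T and 2 in NEB, with a median log2 ratio of 0.70, and OGDH was at 63.4 CPM in G&T with no NEB read. Of the 22 cholesterol synthesis genes counted, 7 were called higher in G&T and 2 in NEB, with a median log2 ratio of 0.11, negative under TMM and median of ratios. DHCR7, the last enzyme of the pathway, was at 149 and 0.878 CPM, and MSMO1 at 37.9 and 230.1 CPM.

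Genes of RNA processing were mixed. Of the 49 spliceosome genes counted, 9 were called higher in G&T and 0 in NEB, with a median log2 ratio of 0.50. PRPF19 was at 79.9 and 1.25 CPM in G&T and NEB, and SNRPD2, of the Sm ring, at 719 and 509 CPM. SNRPD2 was at 1561 and 1477 CPM in G&T cells E2 and H1 and at most at 856 CPM in the other G&T cells. Of the 33 hnRNP and SR protein genes counted, 4 were called higher in G&T and 4 in NEB, with a median log2 ratio of -0.13. SRSF6, a splicing regulator, spanned 1473 to 4861 CPM with a median of 2603 CPM in NEB cells and 77.8 to 204 CPM with a median of 121 CPM in G&T cells. HNRNPUL2 was at 10.9 and 1.13 CPM, with a log2 ratio of 2.49 that became 3.23 without NEB cell A1. Of the 45 DEAD-box and DEAH-box helicases counted, 11 were called higher in G&T and 1 in NEB, with a median log2 ratio of 0.58, and besides DDX6 these included DHX33, at 26.4 and 287 CPM. Of the 40 genes of deadenylation and mRNA decay counted, 5 were called higher in G&T and 6 in NEB, with a median log2 ratio of 0.04, or -0.09 under TMM and -0.14 under median of ratios. Next to PAN3, the decapping enzyme DCP2 was higher in NEB at 244 and 1226 CPM, while EDC3, a decapping activator, was read at 27.1 CPM in G&T and in no NEB cell.

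Of the 21 SWI/SNF chromatin remodelling genes counted, 6 were called higher in G&T and 2 in NEB, with a median log2 ratio of 1.36. Their median GC content was 52.6%, and the median ratio of all genes in the GC bin from 52.3 to 55.8% was 1.63. SMARCD1 was at 43.2 and 0.502 CPM in G&T and NEB, with a log2 ratio of 4.88 that became 5.46 without NEB cell C2, and ARID2 was at 67.8 and 600.3 CPM. Of the 40 genes of nuclear receptor coregulators and Mediator counted, 8 were called higher in G&T and 3 in NEB, with a median log2 ratio of 0.08, negative under TMM and median of ratios. MED15 had 285 reads in G&T and none in NEB, and MED7 was at 22.3 and 224 CPM in G&T and NEB. Among the 265 ZNF genes counted, a large family of DNA-binding repressors, 54 were called higher in G&T and 41 in NEB, with a median of -0.13 that became 0.12 with nuclear reads as the total and 0.50 at a minimum of 1 CPM. ZNF844 and ZNF433, neighbours on chromosome 19, had opposite patterns, 29.2 CPM in G&T with no NEB read and 1.26 and 50.3 CPM in G&T and NEB.

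Of the 35 genes of S phase and the replication fork counted, 15 were called higher in G&T and 0 in NEB, with a median log2 ratio of 1.65. MCM5, of the replicative helicase, was at 54.9 and 0.878 CPM in G&T and NEB and was read in 10 and 1 cells, with no NEB read outside cell D1. CDC45, its cofactor, was at 35.6 CPM in G&T with no NEB read, and RPA3, of the single-strand binding protein, at 336 and 206 CPM. Of the 36 genes of G2 and mitosis counted, 5 were called higher in G&T and 2 in NEB, with a median log2 ratio of 0.20, negative when all deposited wells were used. TOP2A was at 917 and 957 CPM, with 585 CPM in NEB without cell D1 (log2 ratio 0.65), and the tubulin TUBB4B at 405 and 18.8 CPM. CCNB1 was called higher in NEB at 241 and 1266 CPM, but not without NEB cell D1 (-1.75). The part of the cell cycle phase of the cells in these values was not tested. Of 14 histone genes counted 3 were called in each direction, with H4C3 at 34.7 and 476 CPM (log2 ratio -3.74, -2.03 without NEB cell E1) and H1-4 at 13.6 CPM in G&T with no NEB read.

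Of the 12 tubulin genes counted, 7 were called higher in G&T and 0 in NEB, with a median log2 ratio of 2.14, and TUBA1C was at 305 and 9.91 CPM in G&T and NEB. The median GC content of the tubulins was 53.5%, and the median ratio of all genes in the GC bin from 52.3 to 55.8% was 1.63. Of the 28 actin and actin-binding genes counted, 5 were called higher in G&T and 1 in NEB, with a median log2 ratio of 0.31. TMSB4X, which sequesters actin monomers, was among the 6 highest genes of G&T at 11421 and 4941 CPM, and ACTN4, a crosslinker, was at 126 and 1.63 CPM. TMSB4X was at 23096 and 30036 CPM in G&T cells E2 and H1 and at most at 14904 CPM in the other G&T cells. CAPZA1, of the capping protein, was at 228 and 1906 CPM. Of the 9 immediate early genes counted, 4 were called higher in G&T and 0 in NEB, with a median log2 ratio of 1.46, among them JUN at 41.8 CPM in G&T with no NEB read, and KLF6 at 89.2 and 94.9 CPM. Of the 17 metallothionein and antioxidant genes 3 and 0 were called, with a median of 0.05 that became negative under TMM and median of ratios. MT2A, a metallothionein, was at 341 and 7.52 CPM, and its log2 ratio of 5.33 became 3.92 without G&T cell H1.

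**Figure D5:**
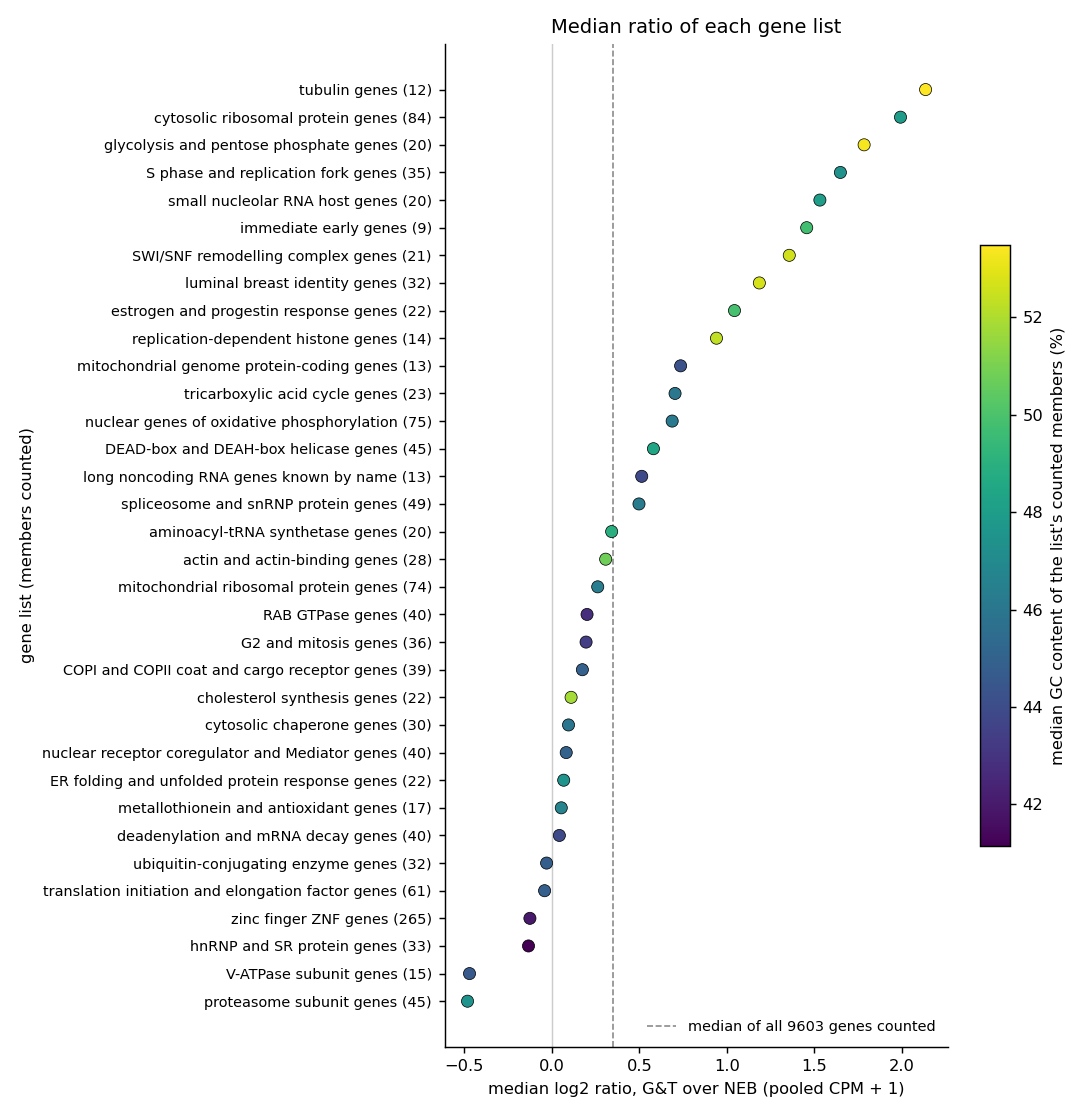
Median log2 ratio of G&T over NEB of each gene list with at least 5 members counted, coloured by the median GC content of these members, with a dashed line at the median of all 9603 genes. Cytosolic ribosomal proteins (median 1.99) and tubulins (2.14) lie highest, and the proteasome (-0.48) and V-ATPase (-0.47) lowest.

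The genes that mark T47D as luminal breast epithelium were read by both protocols, but not in the same proportions. Of the 32 luminal identity genes counted, 13 were called higher in G&T and 1 in NEB, with a median log2 ratio of 1.19. Their median GC content was 52.7%. Of all genes in the GC bin from 52.3 to 55.8%, 40.9% were called higher in G&T, with a median of 1.63. The luminal identity genes summed to 21023 to 31499 CPM in G&T cells and 4834 to 22006 CPM in NEB cells. KRT8 and KRT18, whose proteins pair in the keratin filaments of simple epithelia, were at 4237 and 84.8 CPM and at 955 and 419.8 CPM in G&T and NEB. KRT8 spanned 1606 to 6861 CPM with a median of 4099 CPM in G&T cells and 23.0 to 232 CPM with a median of 44.1 CPM in NEB cells, without overlap, whereas KRT18 spanned 351 to 2349 CPM with a median of 792 CPM and 149.8 to 1292 CPM with a median of 307 CPM. Their log2 ratios were 5.63 and 1.18. Both keratins have pseudogenes that can share their reads. TFF3, a secreted trefoil peptide, spanned 115 to 12935 CPM with a median of 3259 CPM in G&T cells and 14.5 to 1242 CPM with a median of 152 CPM in NEB cells, and its log2 ratio of 4.30 became 5.11 without NEB cell B1. CLDN3, a tight junction claudin, was at 219 and 6.52 CPM. KRT8, KRT18, TFF3, CLDN3, RPS12, RPLP2, PSMD4, PSMC2, GAPDH and MCM5 were named after their values were seen.

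SPDEF, an epithelial transcription factor, was at 201 and 2.26 CPM in G&T and NEB, and its log2 ratio of 5.96 became 6.80 without NEB cell D2. In the other direction TFAP2A, another luminal transcription factor, was at 78.3 and 607 CPM. AGR2, a disulphide isomerase of secretory epithelium and the highest of the list, was at 7399 and 1876 CPM. Both protocols read the estrogen and progesterone receptors. ESR1, the estrogen receptor, spanned 49.2 to 692 CPM with a median of 178 CPM in G&T cells and 225 to 2086 CPM with a median of 830.3 CPM in NEB cells (log2 ratio -1.90). PGR, the progesterone receptor, was at 428 and 1068 CPM, and neither was called. Of the 22 estrogen and progestin response genes counted, 5 were called higher in G&T and 0 in NEB, with a median log2 ratio of 1.04. TFF1, an estrogen-induced trefoil peptide, was at 282 and 4.14 CPM, and its log2 ratio of 5.78 became 7.80 without NEB cell E1 and 4.34 without G&T cell H1.

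Most markers of other cell types did not pass the level filter. The basal and mesenchymal genes summed to 5.19 to 148 CPM in G&T cells and 0 to 194 CPM in NEB cells, and the blood and endothelial genes to 0 to 52.5 CPM and 0 to 54.7 CPM. Of 16 basal and mesenchymal genes 3 were counted and 1, VIM, was called, at 1.26 and 18.1 CPM in G&T and NEB. Its log2 ratio of -3.07 was -2.03 without NEB cell A1, where it dropped below the level filter, and -4.10 without G&T cell G1. Of 9 blood and endothelial genes 0 were counted. Of the sort stains, EPCAM was at 186 and 185 CPM and ITGA6 at 34.9 and 30.5 CPM. The NEB level of ITGA6 was 13.4 CPM without cell C1 (log2 ratio 1.32). PTPRC and PECAM1 were at 0.211 and 1.26 CPM in G&T with no NEB read.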

How the data were processed

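Single-cell libraries of G&T, NEB and Takara were compared from 1 table of read counts per protocol that the authors deposited, with whole-number counts for 60279 genes in each well, beside 92 ERCC transcripts and 4 classes of reads not assigned to a gene. Per the labels and the methods, the authors trimmed reads with Trim Galore and aligned them to GRCh38 with STAR, and no molecular identifiers were used. The annotation release, the strand setting of the counts and how the adaptors of the NEB library were trimmed are not given in the sources used here. Unassigned reads and spike-ins were left out of CPM.

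Cells were kept by the thresholds given with the results. Genes were matched by identifier to GENCODE 44 (56104 of 60279), and genes without a match held 0.111% of the G&T and 0.195% of the NEB reads. GC content, length and runs of A were read from the longest transcript. With 1 plate and run per protocol no model was fitted. Pooled CPM, ratios with a pseudocount of 1 CPM and the fold of 4 were computed in Python 3.11.15 (numpy 2.4.6, pandas 2.3.3, scipy 1.17.1, matplotlib 3.10.9). So were the exact Poisson intervals of levels and the exact binomial intervals of ratios. TMM factors were computed in R 4.3.3 with edgeR 4.0.16. The computation was tested on simulated data. Nothing says that cells came from separate cultures, and the 11 cells of a protocol share their plate.

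Named genes were the 6 protein-coding genes with the largest ratio in each direction among those read in every cell of the higher protocol, the 4 highest genes read in every cell of one protocol and in none of the other, in each list or class the highest member and the called member with the largest ratio in each direction, the 6 highest genes of each protocol, and the genes of the sort stains and hormone receptors. Genes outside this rule are said to be so in the text. A few genes that the rule names are not reported here. The comparison, its gene lists and classes were chosen with earlier results of these data known. Paralog families, GC limits, exceptions to the GC order and transcript parts were chosen after values were seen. Alternatives covered scaling, pseudocount, level filter, fold, cells left out and choice of transcript.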

Additional observations from a re-analysis of the deposited data

Results flagged for a closer look

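The wells left out by the quality thresholds enter no comparison, and their share of nuclear protein-coding reads on transcripts above 55% GC was looked at as a signal outside the main measurement. In the left-out G&T wells it was 18.1% (C2) and 18.8% (F1), within the 16.4 to 21.9% of the kept G&T cells. In the left-out NEB wells it was 6.30% (B2), 7.20% (F1) and 3.93% (F2), the first 2 within the 4.12 to 8.34% of the kept NEB cells and the last below them. Well F1 of NEB held 1236 such reads, and the 95% Wilson interval of its share was 5.89 to 8.78%, which covers counting error only. All 5 wells lay on their own protocol's side of the gap between the kept cells. Groups of 11 cells were not examined for single outlying cells.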

How the results depend on the processing

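No paired analysis was possible because the results come from no test and the well labels only name the cells. The count of genes called higher in G&T, 2380, was 1466 with a pseudocount of 5 CPM, 3665 with any read as the filter or a minimum of 1 CPM, 985 at a minimum of 20 CPM and 3696 at a fold of 2. The count called higher in NEB, 804, was 518 with a pseudocount of 5 CPM and 2158 at a fold of 2. Leaving out 1 cell gave 2281 to 2528 and 779 to 865. G&T held 74.7% of all calls, and 70.4% under TMM, 68.4% under median of ratios, 78.1% with nuclear reads as the total, 63.5% at a minimum of 20 CPM and 63.1% at a fold of 2. Genes per cell were 8700.1 in G&T and 4414 in NEB at a minimum of 5 reads, and 9562 in G&T over protein-coding genes alone. The median log2 ratio of the lowest GC bin was -1.21 under TMM, -0.96 with nuclear reads or a minimum of 1 CPM and -0.94 among genes chosen by their Takara level. That of the highest bin was 3.46 with nuclear reads, 3.76 with a pseudocount of 0.1 CPM and 2.60 at a minimum of 1 CPM. The cause of these shifts was not tested. Of 294 values of list and class medians 283 stayed within the binomial interval of the median over genes and 11 did not. Under other scalings, pseudocounts and wells, 308 of 931 values of the 133 named genes lay outside the counting interval, and none that was called changed its sign. Leaving out 1 cell changed the sign of 2 called genes, RPAP2P1 (-3.80, or 0.14 without NEB cell E2) and TAS2R64P (-3.55, or 0.28 without NEB cell C1). The canonical transcript, the genes chosen by Takara level, the left-out wells and the median of ratios for lists were added after seeing the data. Values of genes with few reads in NEB rest on single cells, and levels under 0.316 CPM in G&T or 0.376 CPM in NEB cannot be told from 0.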
